A study of Arabidopsis thaliana with 42 samples.

Results

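CCA1 (CIRCADIAN CLOCK ASSOCIATED 1, locus AT2G46830) and LHY (LATE ELONGATED HYPOCOTYL, locus AT1G01060) are the paired MYB-type transcription factor genes of the Arabidopsis morning clock. They were picked out by their locus identifiers and not by a threshold on measured values, and are 2 of the 33602 loci in the count tables. Messenger RNA was sequenced from seedlings of wild-type Col-0 and of the link1link2 double mutant, also labelled Col-0, in 42 libraries. The labels' LINK1 and LINK2 were read as LNK1 and LNK2, light-induced genes whose proteins act as transcriptional coactivators with clock MYB factors; the mutant alleles are not named in the sources used here. In 1 experiment both genotypes were kept in continuous light (3 libraries each, harvest hour not given), and in the other they were kept in long days, with 16 h of light in each cycle and 8 h of darkness, and harvested every 4 h, 6 times in all, from ZT2 to ZT22 (zeitgeber time, in hours after lights on), with 3 libraries per genotype and time. All plants were grown on MS medium at 22 °C and are labelled as 9 days old, whereas the design text gives a longer growth time for continuous light. Whether the libraries of a group are separate cultures is not stated, and the p-values cover only the spread among these libraries, which may be technical.

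CCA1 and LHY proteins accumulate around dawn and repress genes that are expressed later in the day, many of which carry a short promoter motif called the evening element. The pseudo-response regulators PRR9, PRR7, PRR5 and TOC1 are made in turn through the day and repress CCA1 and LHY, which closes the loop and confines their transcripts to the end of the night and the morning. RVE8 and its close relatives are MYB-like activators of the evening genes and recruit LNK proteins to them.

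Total counts per library ran from 7259559 to 13576565 in long days and from 11448934 to 14911921 in continuous light. Chloroplast-encoded transcripts made up 0.429% to 3.31% of the counts in long days with 4 libraries above 2%, namely link1link2 ZT22 replicates A and C, link1link2 ZT2 replicate C and wild type ZT10 replicate B. The mutant columns carry a laboratory name that no label explains and were assigned by elimination. At ZT2, wild type averaged 729.5 ± 30.2 CPM of LNK2 (counts scaled to library size, mean ± SD, n = 3) against 11.9 ± 1.29 CPM in the mutant, but at ZT14 the averages were 7.58 ± 0.568 and 25.1 ± 3.81 CPM. LNK1 had the same signs, with 251.8 ± 2.94 and 74.1 ± 4.97 CPM at ZT2 and 4.58 ± 0.931 and 26.2 ± 3.46 CPM at ZT14, so reads were counted at both mutated genes and the mutant libraries were not low in them at every time. LNK1 overlaps AT5G64160, whose counts came to 25.2% of its own, so part of its reads may belong to that locus. All 4 green-tissue markers and all 5 root markers were detected in both genotypes, the root markers summing to 91.5 to 164 CPM, so the seedlings held shoot and root together. In such whole-seedling RNA, fewer cells of a type and less RNA per cell cannot be told apart.

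On the TAIR10.1 assembly, with RefSeq annotation, CCA1 lies at chr2:19245591-19248915 on the plus strand with 3 annotated transcripts and LHY at chr1:33365-37871 on the minus strand with 8. Their merged exons span 2722 and 3421 bases, and neither gene overlaps another annotated locus. The nearest downstream locus lies 55 bases from CCA1 and 193 bases from LHY. Whether reads running past an annotated end were counted for a neighbour was not tested. The 300 bases upstream of the 2 annotated starts are shown because both genes moved together in most comparisons and because several clock factors named below act through such sequences. CCA1 is read from chr2:19245291-19245590 (plus strand) and LHY from chr1:37872-38171 (minus strand), 5′ to 3′, with matches to the motifs searched in capitals.
CCA1: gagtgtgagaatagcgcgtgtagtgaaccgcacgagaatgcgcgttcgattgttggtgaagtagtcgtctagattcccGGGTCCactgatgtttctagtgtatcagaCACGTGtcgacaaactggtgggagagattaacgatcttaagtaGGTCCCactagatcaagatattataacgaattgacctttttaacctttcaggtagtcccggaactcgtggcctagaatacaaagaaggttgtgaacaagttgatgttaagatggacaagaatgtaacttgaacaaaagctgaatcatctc
LHY: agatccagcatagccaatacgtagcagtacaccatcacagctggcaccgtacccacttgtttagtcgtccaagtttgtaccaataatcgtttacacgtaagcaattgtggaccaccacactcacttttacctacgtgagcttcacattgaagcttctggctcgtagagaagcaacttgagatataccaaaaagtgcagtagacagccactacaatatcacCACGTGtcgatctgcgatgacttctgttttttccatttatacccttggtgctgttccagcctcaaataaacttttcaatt

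Both windows hold 1 G-box (CACGTG), which begins 193 bases before the start of CCA1 and 80 bases before that of LHY. A G-box was present in 7.09% of the 27443 promoter windows of this length from protein-coding genes, searched on both strands. The longest word the 2 windows share on the same strand contains it: CACGTGTCGA, found in 25 windows (0.0911%) and looked for only after the sequences had been seen. The letters GGNCCC, the core bound by TCP-family factors such as CHE, occurred at 222 and 150 bases before the start of CCA1 and not in the LHY window (8.20% of windows). No match was found in either window to the evening element AAAATATCT (2.79% of windows), to the CCA1-binding site AAAAATCT (7.94%) or to GATNCG, the core bound by LUX (20.1%). These matches describe letters only, and no binding was measured.

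In wild type both transcripts rose steeply at the end of the night and fell from ZT2 to ZT10, and LHY climbed earlier than CCA1. LHY was highest at ZT22, 2 h before lights on, whereas CCA1 was highest at ZT2. In link1link2 the rise to ZT22 was smaller for both, both were highest at ZT2, and both were above wild type at ZT10. Levels are given below in CPM scaled with TMM factors, for replicates A, B and C in that order, with the fold change as the log2 ratio of link1link2 over wild type and its standard error (SE). Of the 12 comparisons of these genes in long days 11 were called by edgeR's quasi-likelihood test at a Benjamini-Hochberg adjusted p under 0.05, 4 higher and 7 lower in link1link2. Of all 20518 genes tested, 16.1% were called at ZT2, 8.53% higher and 7.58% lower in link1link2. The share was 20.1% at ZT6 (10.1% higher and 9.98% lower) and 22.1% at ZT10 (11.4% and 10.7%). Later times gave 14.7% at ZT14 (7.72% and 6.98%), 20.2% at ZT18 (10.6% and 9.59%) and, the largest share, 30.6% at ZT22 (16.6% and 14.1%).

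**Figure D1:**
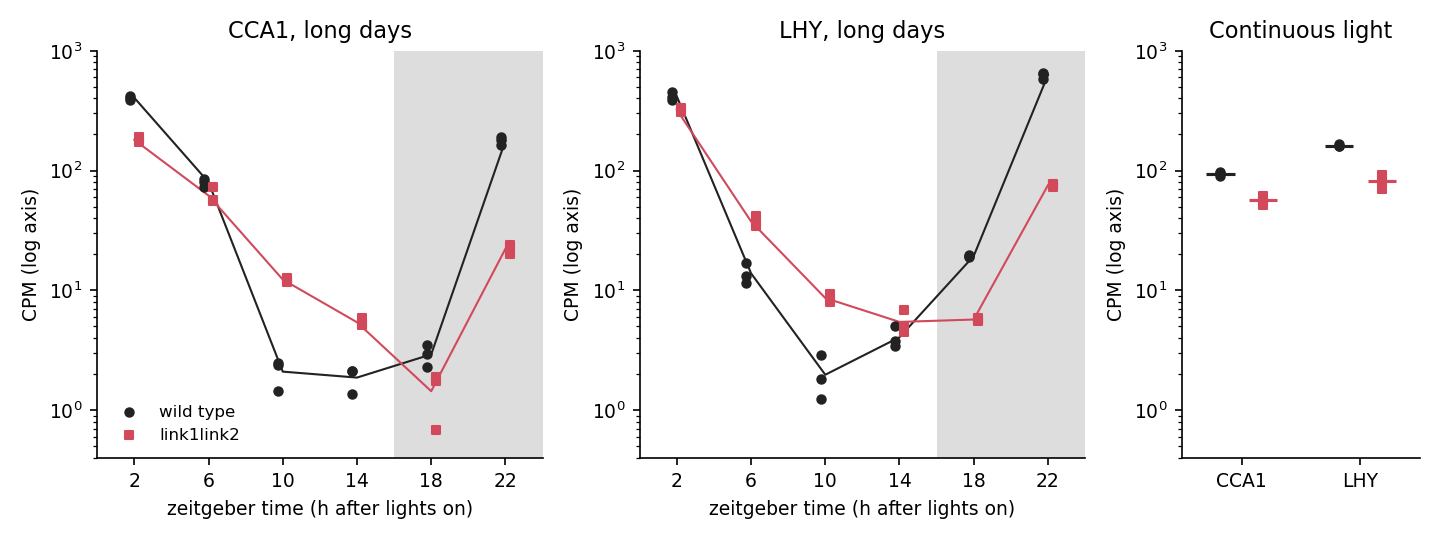
Level of CCA1 and LHY in CPM on a log axis against zeitgeber time in hours, with 1 point per library, lines through the means of 3 libraries and grey shading for the dark period from ZT16 to ZT24. The wild-type curves climb steeply from ZT18 to ZT22, while the link1link2 curves reach 22.2 CPM (CCA1) and 75.4 CPM (LHY) there.

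Before dawn, at ZT22, the wild-type libraries held 179, 163 and 192 CPM of CCA1 and the mutant libraries 23.8, 20.2 and 22.6 CPM. The groups stood far apart, and CCA1 was 8.03-fold lower in the mutant (-3.01 ± 0.10, edgeR adjusted p = 1.11e-25). For LHY they held 651, 585 and 643 CPM and 75.6, 77.1 and 73.6 CPM. It was 8.31-fold lower (-3.05 ± 0.09, edgeR adjusted p = 8.8e-28), so this was the time of the largest fold change for each gene among the 6. The fall stood when the libraries with over 2% chloroplast counts were left out, although 1 mutant library then remained at ZT22.

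At ZT2, 2 h into the light, CCA1 was at 405, 419.8 and 389.9 CPM in wild type and at 179, 172 and 190.3 CPM in link1link2. It was 2.24-fold lower in the mutant (-1.17 ± 0.08, edgeR adjusted p = 3.6e-14), and no mutant library came near a wild-type one. For LHY the wild-type libraries held 448, 408 and 391 CPM and the mutant libraries 332, 308 and 323 CPM, a fall of 0.37 ± 0.08 on the log2 scale (edgeR adjusted p = 0.000632), again without overlap. The 2 genes therefore differed in how much of the gap of ZT22 was left at ZT2.

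At ZT6, 6 h into the light, the signs of the genes parted. CCA1 was at 85.3, 80.9 and 73.6 CPM in wild type and at 57.3, 72.2 and 56.04 CPM in link1link2, which was lower (-0.37 ± 0.09, edgeR adjusted p = 0.002) with the highest mutant library just under the lowest wild-type one. LHY was at 13.2, 17.0 and 11.4 CPM in wild type and at 36.7, 41.8 and 34.3 CPM in link1link2. That was 2.69-fold higher in the mutant (1.43 ± 0.11, edgeR adjusted p = 3.74e-13).

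By ZT10 both had nearly disappeared from wild type. CCA1 was at 1.45, 2.36 and 2.48 CPM there (13, 17 and 30 counts) and at 12.6, 11.8 and 12.5 CPM in link1link2, 5.78-fold higher (2.53 ± 0.19, edgeR adjusted p = 5.76e-14). LHY was at 1.23, 1.81 and 2.89 CPM in wild type (11, 13 and 35 counts) and at 8.59, 9.26 and 8.05 CPM in link1link2. This was 4.12-fold higher (2.04 ± 0.20, edgeR adjusted p = 5.24e-11). All 3 mutant libraries lay above all 3 wild-type libraries for each gene.

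At ZT14, 2 h before lights off, CCA1 was at 2.12, 1.35 and 2.14 CPM in wild type (19, 13 and 17 counts). In link1link2 it was at 5.14, 5.25 and 5.86 CPM, still higher than in wild type (1.54 ± 0.24, edgeR adjusted p = 5.61e-06). LHY was at 3.79, 4.99 and 3.403 CPM in wild type and at 6.81, 5.06 and 4.49 CPM in link1link2. These LHY groups overlapped, and the difference was the only one of the 12 not called (0.39 ± 0.19, edgeR adjusted p = 0.185).

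In the early night, at ZT18, the sign turned again. CCA1 was at 2.27, 2.96 and 3.53 CPM in wild type (22, 31 and 35 counts) and at 1.75, 0.683 and 1.88 CPM in link1link2 (14, 7 and 17 counts), lower in the mutant (-1.06 ± 0.28, edgeR adjusted p = 0.00454). With so few counts this call rested on 1 library, since without link1link2 ZT18 replicate B the CCA1 value was -0.68 (edgeR adjusted p = 0.0939). LHY was already rising in wild type, at 18.9, 19.5 and 19.7 CPM, and stood at 5.51, 5.85 and 5.76 CPM in link1link2 (-1.76 ± 0.14, edgeR adjusted p = 6.76e-13).

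**Figure D2:**
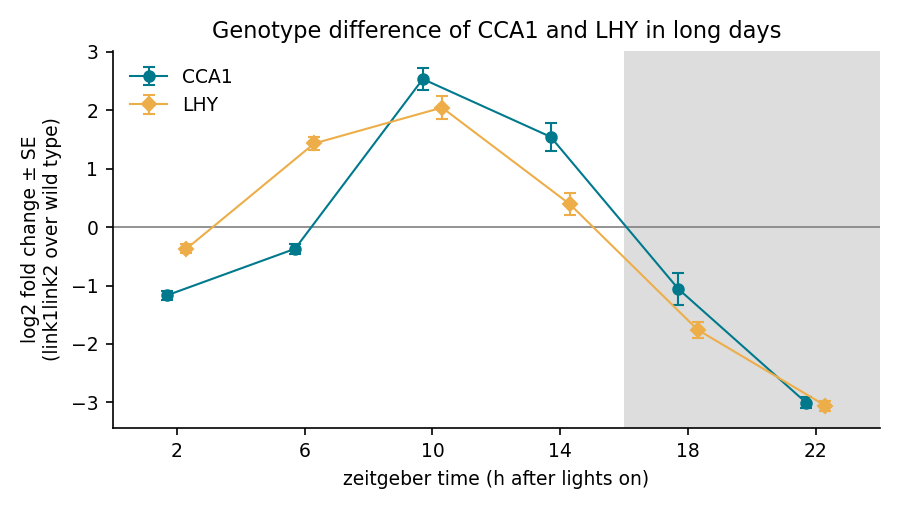
Log2 fold change of link1link2 over wild type for CCA1 and LHY at each sampled zeitgeber time in hours, with bars for the standard error. Both genes are below 0 at ZT2, ZT18 and ZT22 and above 0 at ZT10 and ZT14, and they have opposite signs at ZT6, with LHY at ZT14 not called.

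The genotype difference changed with time for both genes by the joint test of genotype and time (edgeR adjusted p = 1.56e-23 for CCA1 and 1.11e-26 for LHY). That test was passed by 41.9% of all genes tested, and CCA1 and LHY were 21st and 9th in order of p. Averaged over the 6 times, the level of CCA1 was 111.6 CPM for wild type but 47.3 CPM for link1link2, a ratio of 0.424. LHY averaged 180.3 and 75.7 CPM, a ratio of 0.420.

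Ordered from highest to lowest, wild-type CCA1 ran ZT2, ZT22, ZT6, ZT18, ZT10 and ZT14. The last pairs of neighbours were not called (ZT18 over ZT10, edgeR adjusted p = 0.134; ZT10 over ZT14, edgeR adjusted p = 0.643). In link1link2 the order of CCA1 was ZT2, ZT6, ZT22, ZT10, ZT14 and ZT18, each differing from the next, so ZT6 and ZT22 had changed places and ZT18 rather than ZT14 was lowest. Wild-type LHY ran ZT22, ZT2, ZT18, ZT6, ZT14 and ZT10, each differing from the next. Mutant LHY ran ZT2, ZT22, ZT6, ZT10, ZT18 and ZT14, the last pair overlapping (edgeR adjusted p = 0.719). In all, 17 of these 20 neighbouring pairs were called, a count to be read against the large share of all genes called between such times. In wild type that share was 53.1% between ZT2 and ZT22, 54.1% between ZT22 and ZT6, 50.1% between ZT6 and ZT18, 43.5% between ZT18 and ZT10, 33.2% between ZT10 and ZT14, 55.4% between ZT2 and ZT18 and 45.3% between ZT6 and ZT14. In link1link2 it was 62.8% between ZT2 and ZT22, 62.1% between ZT6 and ZT22, 61.5% between ZT10 and ZT22, 53.8% between ZT10 and ZT18, 48.4% between ZT14 and ZT18, 43.5% between ZT2 and ZT6, 23.7% between ZT10 and ZT14 and 12% between ZT6 and ZT10.

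The ratio of the highest to the lowest mean was 217 for CCA1 and 317 for LHY in wild type. In link1link2 it was 125 and 58.9. In wild type ZT22 held 57.9% of the summed LHY level of the 6 times and ZT2 held 38.4%. In link1link2 the shares of LHY were 16.6% at ZT22 and 70.8% at ZT2. For CCA1 the share at ZT22 was 26.6% in wild type and 7.83% in link1link2, and the share at ZT6 was 11.9% and 21.8%.

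The change from each sampled time to the next shows where the profiles parted. Among all genes the steps not counted above called 45.1% from ZT2 to ZT6, 22.5% from ZT6 to ZT10, 37.6% from ZT14 to ZT18 and 22% from ZT18 to ZT22 in wild type, and 25.3% from ZT18 to ZT22 in link1link2. From ZT18 to ZT22 wild-type CCA1 rose 60.5-fold (5.92 ± 0.13 on the log2 scale) and LHY 32.4-fold (5.02 ± 0.10). In link1link2 these rises were 15.7-fold (3.98 ± 0.19) and 13.2-fold (3.72 ± 0.12). Both were smaller in the mutant, by -1.94 ± 0.33 for CCA1 (edgeR adjusted p = 0.000121) and -1.30 ± 0.17 for LHY (edgeR adjusted p = 1.64e-06), where 4.33% of all genes differed in this step.

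Across lights on, from ZT22 to ZT2, the pattern was the reverse. This step sets the last time of the cycle against the first, and the order of harvest is not given. Wild-type CCA1 was 2.28-fold higher at ZT2 than at ZT22, and LHY was 1.51-fold lower. In link1link2 CCA1 was 8.14-fold and LHY 4.26-fold higher at ZT2 than at ZT22. The steps differed by 1.84 ± 0.12 for CCA1 (edgeR adjusted p = 3.81e-14) and 2.68 ± 0.11 for LHY (edgeR adjusted p = 1.77e-20), with LHY first and CCA1 7th of all genes in order of p, and 18.6% of all genes called.

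From ZT2 to ZT6 both genes fell less in the mutant, and from ZT6 to ZT10 CCA1 did. From ZT2 to ZT6 CCA1 fell 5.06-fold in wild type and 2.92-fold in link1link2, and LHY fell 29.8-fold and 8.55-fold, with differences of 0.79 ± 0.12 and 1.80 ± 0.14 (edgeR adjusted p = 6.07e-06 and 8.94e-13, against 10.2% of all genes called). From ZT6 to ZT10 CCA1 fell 37.5-fold in wild type and 5.01-fold in link1link2, a difference of 2.90 ± 0.21 (edgeR adjusted p = 1.81e-13, against 6.82% of all genes). The LHY difference in that step was 0.61 ± 0.24 and was not called (edgeR adjusted p = 0.134). It was called when wild type ZT10 replicate C (1.11, edgeR adjusted p = 0.0105) or wild type ZT6 replicate C (0.75, edgeR adjusted p = 0.0494) was left out.

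After ZT10 wild-type LHY began to climb while the mutant went on falling. From ZT10 to ZT14 LHY rose by 0.98 ± 0.23 in wild type and fell by 0.68 in link1link2 (SE 0.17), a difference of -1.65 ± 0.28 (edgeR adjusted p = 3.32e-05, against 11.5% of all genes). CCA1 showed -0.20 ± 0.29 in wild type, which was not called (edgeR adjusted p = 0.643), and -1.19 ± 0.16 in link1link2. That difference of -0.99 ± 0.33 was close to the threshold (edgeR adjusted p = 0.0464) and was lost in several alternatives given in the closing section. From ZT14 to ZT18 LHY rose by 2.23 ± 0.15 in wild type and by 0.09 ± 0.18 in link1link2, the latter not called (edgeR adjusted p = 0.719), and CCA1 rose by 0.66 ± 0.26 in wild type (edgeR adjusted p = 0.044, a call lost when any 1 of 18 single libraries was left out) and fell by 1.94 in link1link2 (SE 0.25). The differences in this step were -2.15 ± 0.24 for LHY and -2.60 ± 0.36 for CCA1 (edgeR adjusted p = 2.71e-08 and 3.35e-06, against 7.02% of all genes). Of the 12 step differences 11 were called.

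**Figure D3:**
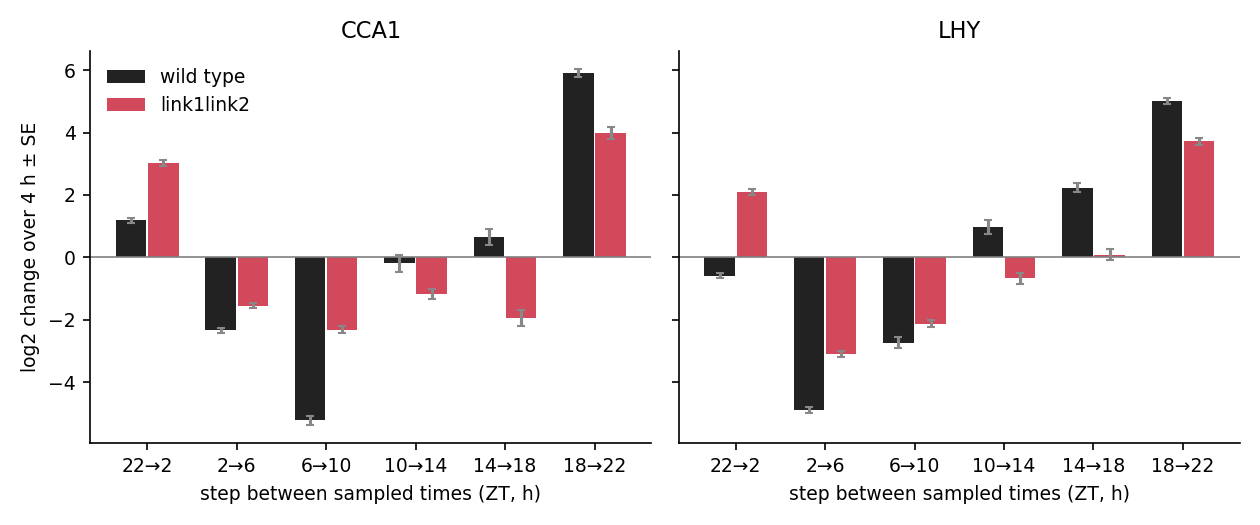
Log2 change of CCA1 and LHY over each 4 h step between sampled times in wild type and link1link2, with bars for the standard error. The wild-type bars are the taller ones in the falls from ZT2 to ZT10 and in the rise from ZT18 to ZT22, and the mutant bars are the taller ones in the step from ZT22 to ZT2.

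Each mutant time was also set against wild type sampled 4 h before it. Mutant CCA1 at ZT2 did not differ from wild type at ZT22 beyond its error (0.02 ± 0.08, edgeR adjusted p = 0.848), where 55.5% of all genes did. Mutant CCA1 at ZT18 was also not told apart from wild type at ZT14 (-0.40 ± 0.32, edgeR adjusted p = 0.3, against 51.4% of all genes), both at the low counts given above. The other 10 comparisons were called, so the mutant profile as a whole did not match wild type 4 h earlier. The lag was set by the sampling interval, and a shorter delay was not tested in this way. At ZT6 mutant CCA1 and LHY were 6.55-fold and 11.1-fold lower than wild type at ZT2 (edgeR adjusted p = 1.27e-25 and 2.65e-28, against 39.5% of all genes), and at ZT22 they were 7.54-fold and 3.89-fold higher than wild type at ZT18 (edgeR adjusted p = 2.92e-18 and 2.51e-19, against 40.7%). Mutant LHY at ZT2 was 1.95-fold lower than wild type at ZT22 (-0.96 ± 0.08, edgeR adjusted p = 1e-13). At ZT10 mutant CCA1 and LHY were 6.48-fold and 1.62-fold lower than wild type at ZT6 (edgeR adjusted p = 8.02e-22 and 0.000154, against 26.8%), and at ZT14 they were 2.54-fold and 2.58-fold higher than wild type at ZT10 (edgeR adjusted p = 6.89e-06 and 2.73e-06, against 37.9%). Mutant LHY at ZT18 was 1.39-fold higher than wild type at ZT14 (0.48 ± 0.19, edgeR adjusted p = 0.0297), a call lost without any of 4 single libraries. These comparisons use the same libraries as those at matched times.

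A 24 h cosine fitted to log2 CPM gave a peak of CCA1 at ZT 1.6 ± 0.24 in wild type and 3.74 ± 0.35 in link1link2, a delay of 2.14 ± 0.42 h (SE). The peak of LHY moved from ZT 23.61 ± 0.21 to 1.84 ± 0.31, a delay of 2.23 ± 0.37 h. Amplitudes in link1link2 were 0.68 and 0.67 of those in wild type. The joint test of the cosine terms was called for both (edgeR adjusted p = 4.35e-06 for CCA1 and 7.14e-06 for LHY), against 15.3% of all genes. With 1 cycle sampled every 4 h these peak times rest on the cosine shape: with an added 12 h term the delay was 0.74 h for CCA1 and 1.43 h for LHY, and on linear CPM it was 1.40 h for CCA1.

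The balance between the genes within a library does not depend on scaling between libraries. As the ratio of LHY to CCA1 counts, wild type ran from 0.971 to 1.11 at ZT2, from 0.155 to 0.210 at ZT6, from 0.765 to 1.17 at ZT10, from 1.59 to 3.69 at ZT14, from 5.57 to 8.32 at ZT18 and from 3.35 to 3.64 at ZT22. LHY thus led in the night and CCA1 outlasted it at midday. In link1link2 the ratio was 1.70 to 1.85 at ZT2, 0.579 to 0.641 at ZT6, 0.644 to 0.785 at ZT10, 0.766 to 1.32 at ZT14, 3.06 to 8.57 at ZT18 and 3.17 to 3.82 at ZT22. The genotypes did not overlap at ZT2 and ZT6, where the ratio was higher in the mutant, nor at ZT14, where it was lower. The gap at ZT14 was narrow and rests on wild-type libraries with 19, 13 and 17 counts of CCA1. At ZT22, where each gene was about as far below wild type as the other, the ranges overlapped.

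Per kilobase of merged exon, the ratio of LHY to CCA1 was also taken, as the geometric mean over the libraries of a group. It was 2.81 (wild type) and 2.71 (mutant) at ZT22, 0.816 and 1.42 at ZT2, and 0.136 and 0.485 at ZT6. On this scale the 2 genes changed rank at ZT2, where wild type had more CCA1 and link1link2 more LHY. They also changed rank at ZT14 (1.74 in wild type and 0.790 in the mutant), in the other direction and at low counts.

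**Figure D4:**
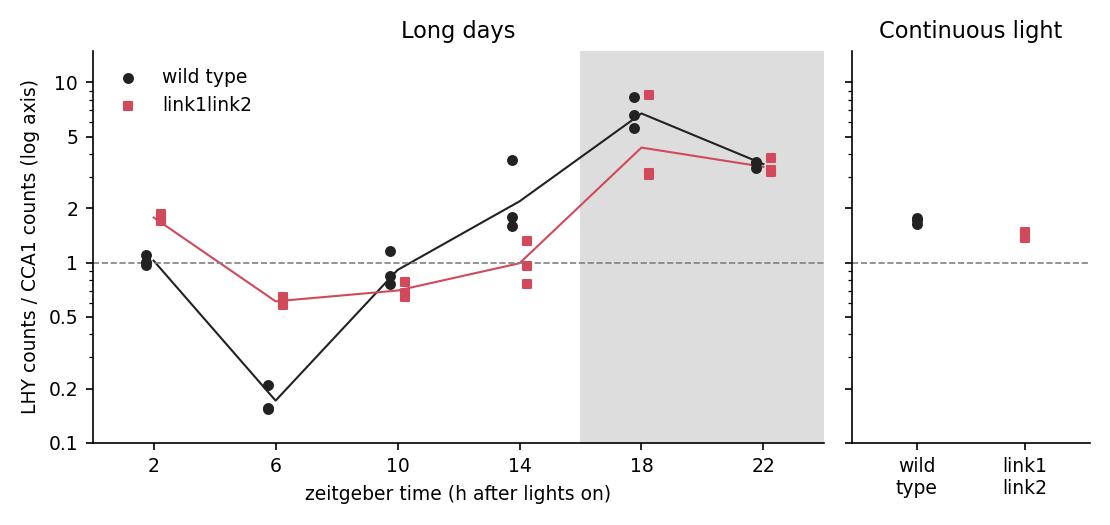
Ratio of LHY to CCA1 counts on a log axis against zeitgeber time in hours for long days, with continuous light beside it and 1 point per library. The mutant points lie above the wild-type points at ZT2 and ZT6 and below them at ZT14 and in continuous light, and they overlap at ZT10, ZT18 and ZT22.

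In continuous light CCA1 was at 90.1, 97.0 and 95.6 CPM in wild type and at 51.4, 57.3 and 61.7 CPM in link1link2, 1.66-fold lower (-0.73 ± 0.07, edgeR adjusted p = 2.38e-07). LHY was at 159.5, 159.5 and 165 CPM in wild type and at 70.04, 83.2 and 91.3 CPM in link1link2. It was 1.98-fold lower (-0.99 ± 0.08, edgeR adjusted p = 2.81e-07), and the libraries of the genotypes did not overlap for either gene. Both were called, where 5.15% of 20158 genes were called in this experiment (2.18% higher and 2.98% lower). The count ratio of LHY to CCA1 was 1.65 to 1.77 in wild type and 1.36 to 1.48 in link1link2. With no harvest hour for these libraries, a lower level and a shifted phase cannot be told apart.

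Repressors of CCA1, LHY or both were examined as a list of 5 genes, PRR9, PRR7, PRR5, TOC1 and CHE. The counts of this list and of the following ones are to be read against the shares of all genes given above for each time. All 5 fell at ZT6, with a list median of -0.79 against 0.000856 over all genes tested, and 1 fell at ZT2. At ZT10 1 rose and 3 fell, at ZT14 3 rose and 1 fell, at ZT18 2 rose, and at ZT22 3 rose, with a median of 0.68 against 0.0103 over all genes. PRR9, the first of the series in the morning, fell from 55.5 ± 3.24 to 31.3 ± 1.67 CPM at ZT2 (-0.83 ± 0.10, edgeR adjusted p = 2.22e-08) and rose from 1.85 ± 0.144 to 10.07 ± 1.17 CPM at ZT10 (2.45 ± 0.20, edgeR adjusted p = 1.25e-13). At ZT14 wild type held 6.89 ± 0.571 CPM of PRR7 and the mutant 80.9 ± 4.02 CPM (3.55 ± 0.12, edgeR adjusted p = 4.02e-26). CCA1 was higher in the mutant at that time, and the LHY difference was not called. TOC1, the last of the series, fell from 240.6 ± 5.57 to 56.9 ± 1.5 CPM at ZT10 and rose from 71.2 ± 0.824 to 136 ± 2.28 CPM at ZT22 (0.93 ± 0.06, edgeR adjusted p = 7.55e-17), the time at which CCA1 and LHY were furthest below wild type. In continuous light 1 of the 5 rose and 2 fell, and PRR7 was the one that rose (0.92 ± 0.07, edgeR adjusted p = 1.21e-08). Whether the repressors changed the level of CCA1 or LHY was not tested, and TOC1 and PRR5 are also on the list of targets below.

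Of the 4 activators on the list, LWD1 and LWD2 are WD-repeat proteins and TCP20 and TCP22 are their TCP partners at the CCA1 promoter. None was called at ZT2, ZT6 or ZT14 or in continuous light. At ZT10 1 fell, where 10.7% of all genes tested fell. At ZT18 and at ZT22 2 rose, where 10.6% and 16.6% of all genes rose, and the list median at ZT22 was 0.47. LWD1 rose from 44.1 ± 1.91 to 62.3 ± 3.82 CPM at ZT18 (0.50 ± 0.08, edgeR adjusted p = 4.07e-06) and from 49.1 ± 1.82 to 86.4 ± 9.25 CPM at ZT22 (0.81 ± 0.07, edgeR adjusted p = 1.37e-11). LWD2 was also called at both times, but its counts are uncertain because an overlapping locus, AT3G26650, holds many times more reads. TCP22 fell at ZT10 (-0.26 ± 0.07, edgeR adjusted p = 0.00419), and TCP20 was called at no time.

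Targets of CCA1 and LHY that are expressed in the afternoon and evening formed a list of 11 genes, which includes TOC1 and PRR5. All 11 fell at ZT10, with a list median of -2.94 against -0.00437 over all genes tested, at the time when CCA1 and LHY were above wild type. At ZT6, where CCA1 was below wild type and LHY above it, 9 fell and none rose. At ZT14, where CCA1 was above wild type and LHY was not called, 2 rose and 7 fell. The balance turned in the night, with 6 higher and 3 lower at ZT18 and 9 higher and none lower at ZT22 (median 0.93 against 0.0103), when CCA1 and LHY were below wild type. At ZT2 3 rose, none fell and 8 were not called (median 0.04), although CCA1 and LHY were both below wild type there. Whether the targets followed CCA1 and LHY was not tested.

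Among these targets the evening-complex gene ELF4 dropped at ZT10, from 122 ± 9.80 to 12.5 ± 0.562 CPM (-3.28 ± 0.10, edgeR adjusted p = 2.3e-27). JMJD5, which encodes a JmjC-domain protein with a role in clock pace, fell from 90.4 ± 2.68 to 7.23 ± 0.661 CPM at ZT10 (-3.65 ± 0.12, edgeR adjusted p = 1.07e-25). GRP7, which encodes a clock-driven RNA-binding protein, fell from 4021 ± 195 to 524 ± 36.2 CPM at ZT10 and rose from 269 ± 37.97 to 713 ± 23.5 CPM at ZT22 (1.41 ± 0.10, edgeR adjusted p = 1.13e-12). FKF1, also on the list, overlaps a locus with more reads than its own, so its values are uncertain. The 11 genes did not share 1 profile. GI, a scaffold protein gene of the clock and of flowering, stood at ZT14 at 85.3 ± 3.93 CPM in link1link2, above the 12.4 ± 3.88 CPM of wild type (2.77 ± 0.13, edgeR adjusted p = 3.05e-17), when 7 other targets fell. In continuous light 2 rose, among them GI (1.10 ± 0.07, edgeR adjusted p = 1.79e-09), and 8 fell, among them JMJD5 (-1.89 ± 0.14, edgeR adjusted p = 7.63e-06), with a median of -0.60 against 0.000661. CCA1 and LHY were both below wild type there as well.

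**Figure D5:**
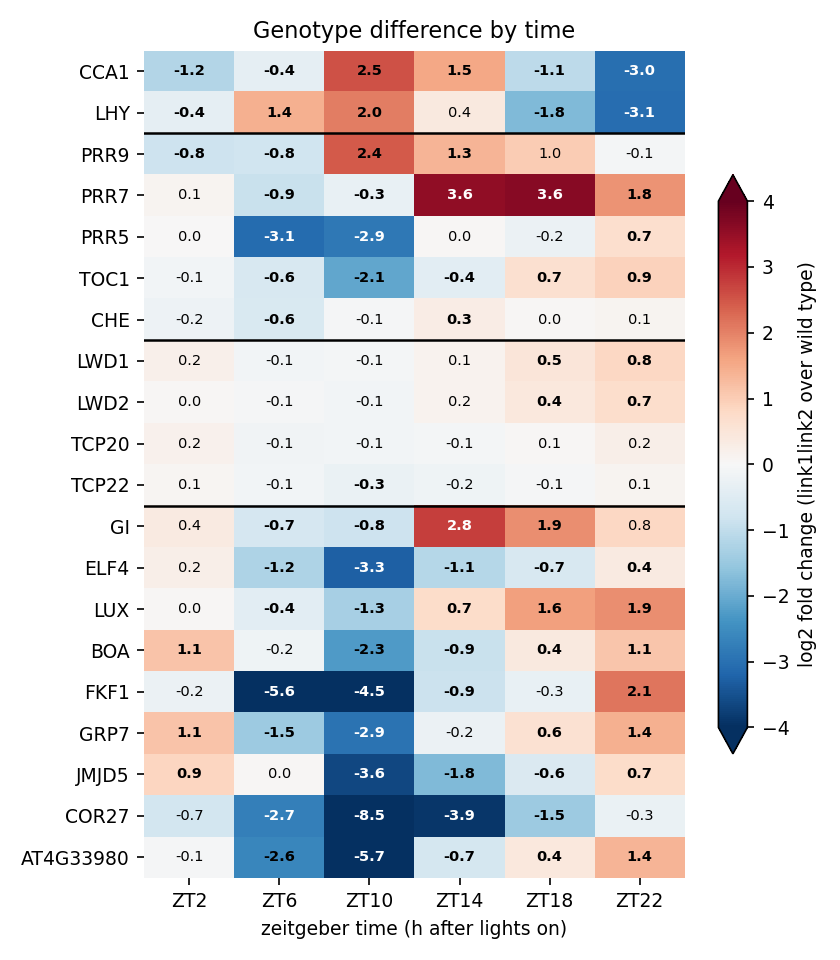
Log2 fold change of link1link2 over wild type at each zeitgeber time, by colour and number. Rows are CCA1 and LHY, the 5 listed repressors, the 4 activators and the other 9 evening-phased targets. Colours are clipped at 4, and numbers are bold where edgeR's adjusted p is under 0.05. The column of ZT10 is red for CCA1 and LHY and blue for the targets below them, and at ZT22 the colours are mostly exchanged.

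The MYB-like relatives of CCA1 and LHY were counted in 2 groups. In the RVE8 clade of 5 genes, activators of evening genes, 4 rose and none fell at ZT10, 3 fell at ZT22, 2 rose at ZT6 and at ZT14, and 2 fell at ZT2 and at ZT18. Of the 4 that rose at ZT10, 2 overlap a locus with more reads than their own, so their values are uncertain. Among all genes tested 11.4% rose at ZT10, 14.1% fell at ZT22, and 10.1% and 7.72% rose at ZT6 and ZT14. At ZT2 and ZT18 7.58% and 9.59% of all genes fell. RVE8 had the signs of LHY at each of the 6 times. It fell from 100.1 ± 11.6 to 34.4 ± 2.72 CPM at ZT22 (-1.54 ± 0.08, edgeR adjusted p = 1.71e-18) and rose from 1.98 ± 0.481 to 15.7 ± 1.10 CPM at ZT10 (2.95 ± 0.17, edgeR adjusted p = 5.51e-18). RVE4 rose from 27.1 ± 2.20 to 45.4 ± 2.24 CPM at ZT10 (0.75 ± 0.08, edgeR adjusted p = 8.66e-10). In continuous light RVE8 was the only one of the 5 called, lower in the mutant (-0.38 ± 0.07, edgeR adjusted p = 0.00184).

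In the RVE1 clade of 3 genes, clock outputs that act in growth and cold responses, the members moved apart. RVE1, which links the clock to auxin, fell from 178 ± 9.85 to 57.5 ± 2.70 CPM at ZT22 (-1.63 ± 0.07, edgeR adjusted p = 8.65e-21) and from 39.03 ± 0.655 to 22.4 ± 1.42 CPM in continuous light. RVE2 fell from 839 ± 13.6 to 418 ± 24.8 CPM at ZT22 (-1.01 ± 0.08, edgeR adjusted p = 2.35e-12). At ZT14 RVE2 fell (-0.94 ± 0.09, edgeR adjusted p = 1.18e-10) and RVE7 rose (1.44 ± 0.15, edgeR adjusted p = 5.16e-10). At ZT6 RVE7 and RVE1 both fell (-1.03 ± 0.10 and -0.70 ± 0.10, edgeR adjusted p = 9.41e-11 and 1.16e-06), whereas RVE2 rose (0.46 ± 0.13, edgeR adjusted p = 0.0114). At ZT22 1 of the 3 rose and 2 fell.

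Casein kinase 2 phosphorylates CCA1 and LHY protein and so acts on the pair after transcription. Of its 7 subunit genes none was called at ZT2, at ZT6 or in continuous light, 1 fell at ZT10, 1 rose at ZT14, 3 rose at ZT18 and 4 rose at ZT22. Among all genes tested 10.7% fell at ZT10, and 7.72%, 10.6% and 16.6% rose at ZT14, ZT18 and ZT22. The median at ZT22 was 0.17 against 0.0103 over all genes. CKB3, a regulatory subunit, rose from 62.1 ± 2.89 to 87.3 ± 1.70 CPM at ZT22 (0.49 ± 0.06, edgeR adjusted p = 2.95e-08), the largest change of the 7 at that time. CKA1 and CKA3, which are among the 7 counted, overlap loci with more reads than their own, so their values are uncertain. Protein and phosphorylation were not measured.

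Across the 12 long-day group means of log2 CPM, LHY was 96th of 18238 genes in likeness to CCA1 (Pearson r = 0.87) and CCA1 was 45th in likeness to LHY. The 5 genes closest to the mean profile of the pair were AT4G15430 (r = 0.96), RVE8 (0.96), COL2 (0.95), AT3G47295 (0.95) and AAPT2 (0.95). The r is a description over 12 points that share the time of day. Since these genes were chosen by their profile, the values that follow are given without a test. RVE8 was tested above as a member of its clade. COL2, a CONSTANS-like B-box gene, went from 89.1 ± 8.19 to 23.1 ± 1.33 CPM at ZT22 (-1.94 ± 0.09) and from 6.37 ± 1.05 to 20.9 ± 1.37 CPM at ZT10 (1.70 ± 0.13). AT4G15430, which carries no gene name in the annotation used, went from 38.3 ± 3.59 to 13.0 ± 0.809 CPM at ZT22 (-1.56 ± 0.12). The 3 most opposed profiles were those of AT1G01300 (-0.94), the sterol oxidase gene SMO2-1 (-0.93) and AT2G20270 (-0.93). SMO2-1 went from 17.0 ± 0.651 to 23.2 ± 1.16 CPM at ZT22 (0.45 ± 0.09). AT3G47295 and AT2G20270 each overlap another locus that holds counts, so part of their reads may belong to that locus.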

How the data were processed

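The authors deposited raw counts per locus, 1 table per experiment, as whole numbers without normalization, and each column header names an alignment file. Libraries were made from poly(A) RNA by the TruSeq procedure, per the labels' protocols, and whether strand was kept is not given there. The build was TAIR10, per the submitters' processing notes, with the aligner and counting tool not given in the sources used here. Of 33602 loci, 32835 (97.7%) matched the TAIR10.1 annotation of RefSeq, used for names, overlaps, coordinates and promoter windows. Columns were matched to groups by name, and the letters A, B and C of the columns were not tied to the replicate numbers of the labels. Libraries within a group differed by more than sampling noise in every pair (chi-square divided by its degrees of freedom, 1.91 to 22.8 over 42 pairs, genes with at least 10 counts). The highest values, 19.2 and 22.8, came from the pairs of wild type ZT10 replicate B with replicates A and C.

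Each experiment was fitted alone with edgeR 4.0.16 in R 4.3.3 (filterByExpr, TMM factors, robust quasi-likelihood test), with Benjamini-Hochberg adjustment over all genes of a comparison. Long days were 1 model of 12 groups with 24 residual degrees of freedom, and continuous light had 4. Levels are CPM, and the 2 tables were normalised separately. Cosines of 24 h were fitted to log2 CPM with a prior count of 0.5, with SE by the delta method. The procedure was tested on simulated data with known changes. Those changes were planted in genes with more counts than the lowest of CCA1 and LHY, and the simulated rhythms were pure cosines with added noise. CCA1, LHY and the 6 lists were chosen with earlier results of these data known. The named genes were CCA1, LHY, 2 to 4 genes a list, and, among genes averaging a log2 CPM of 1 or more, the 5 most like and the 3 most opposed to the pair. Alternatives were DESeq2 1.42.0, its size factors, no low-count filter, each time alone, a block by column letter, other cosine settings, and leaving out libraries.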

Additional observations from a re-analysis of the deposited data

Results flagged for a closer look

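The genotype difference was not the same at the 6 times of day for either gene, by the joint test of genotype and time in edgeR (adjusted p = 1.56e-23 for CCA1 and 1.11e-26 for LHY). Split into the 4 h steps between sampled times, the change of link1link2 minus that of wild type was itself tested, and 11 of 12 such differences passed. On the log2 scale they were 0.79 for CCA1 and 1.80 for LHY from ZT2 to ZT6, 2.90 for CCA1 from ZT6 to ZT10, and -0.99 for CCA1 and -1.65 for LHY from ZT10 to ZT14. Later in the cycle they were -2.60 for CCA1 and -2.15 for LHY from ZT14 to ZT18, -1.94 for CCA1 and -1.30 for LHY from ZT18 to ZT22, and 1.84 for CCA1 and 2.68 for LHY from ZT22 to ZT2. The CCA1 differences that involve ZT10, ZT14 or ZT18 rest on libraries with 7 to 35 counts on at least 1 side.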

How the results depend on the processing

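The genotype differences of CCA1 and LHY in continuous light and at each long-day time kept their direction and their side of the threshold with DESeq2's size factors, DESeq2's Wald test, no low-count filter, each time fitted alone and a block by column letter, and without the libraries of over 2% chloroplast counts, where ZT22 gave -3.14 for CCA1 and -3.02 for LHY. Leaving out single libraries ended 1 of these calls, that of CCA1 at ZT18 (-1.33 to -0.68). Results near the threshold or near 0 did not hold. The CCA1 step difference from ZT10 to ZT14 was not called without the low-count filter (-0.99, adjusted p = 0.0508), with the block (-0.99, adjusted p = 0.056), without the libraries of over 2% (-1.05, adjusted p = 0.0648) or without any of 11 single libraries (-0.997 to -0.79, and -1.20 to -0.79 over all 36 omissions). Wild-type CCA1 at ZT18 over ZT14 was 0.66 and not called in those same 3 alternatives (adjusted p = 0.0506, 0.0523 and 0.0532) and ran from 0.46 to 0.80 without single libraries, 18 of which ended the call (adjusted p up to 0.238). Mutant CCA1 at ZT2 against wild type at ZT22 was -0.0012 without the filter, -0.0199 without the libraries of over 2% and -0.0391 to 0.0778 without single libraries, never called. Without single libraries, wild-type CCA1 at ZT14 over ZT10 ran from -0.39 to 0.0053, mutant LHY at ZT18 over ZT14 from -0.0433 to 0.23, mutant LHY at ZT18 over wild type at ZT14 from 0.37 to 0.66 and lost its call in 4 cases, and the LHY step difference from ZT6 to ZT10 from 0.36 to 1.11. The cause of these changes was not tested. With an added 12 h term the cosine delay was 0.74 h for CCA1 and 1.43 h for LHY and the CCA1 amplitude ratio 0.79, and on linear CPM the delay of CCA1 was 1.40 h and the amplitude ratios 0.40 (CCA1) and 0.41 (LHY). RVE7 in continuous light was not called by DESeq2 or without any 1 of the 6 libraries. CKB2 at ZT10 lost the call without link1link2 ZT10 replicate C. TCP22 at ZT10 lost it without wild type ZT10 replicate B, and also without all libraries of over 2% (-0.20), which include that replicate.

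Over all genes, continuous light gave 1039 calls, 1888 with the block, 692 by DESeq2 and 657 to 929 without single libraries. Fitted alone, ZT2 gave 2028 calls (3306 in the model of all times) and ZT14 1704 calls (3016). Without the libraries of over 2% ZT22 gave 3695 calls (6285 with them) and the cosine test 1647 (3148). The groups share replicate numbers in the labels, but the columns carry letters, so the block used the letters. In continuous light, deviations of same-letter libraries correlated at 0.0508 to 0.133, above 0.1 in 2 of 3 pairs, and each library correlated best with its own letter; in long days they correlated at -0.32 to 0.117. In long days the best match carried the same letter for 5 of the 6 libraries at ZT14 and for 4 at ZT22. It did so for 2 at ZT6, at ZT10 and at ZT18 and for 0 at ZT2. The main fits did not pair samples by letter, although the letters may mark pairs in continuous light. With the block the value in continuous light was called for CCA1 (adjusted p = 1.1e-11) and LHY (adjusted p = 2.1e-12), and the block changed no call of theirs beyond the 2 CCA1 results above. Depth limits CCA1 and LHY at ZT10, ZT14 and ZT18, where libraries held as few as 7 counts.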
